A study of Mus musculus with 4 samples.

Results

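In adult bone marrow MSCs, 10 FGF genes were described: the receptors Fgfr1, Fgfr2, Fgfr3, Fgfr4 and Fgfrl1, and the ligands Fgf1, Fgf2, Fgf7, Fgf9 and Fgf18. They were taken by symbol from the 56980 genes of the count table, in which 10 of 10 were listed. The samples are 4 libraries of MSCs, the mesenchymal stromal cells that support blood stem cells, 1 library from each of 4 male wild-type C57BL/6J mice that were bred in house and were 14 weeks old. From each mouse, 100 cells that carried CD51 and PDGFRa but lacked CD45, Ter119, CD31 and Sca1 were sorted, and their polyadenylated RNA was converted to full-length cDNA and amplified by PCR. All mice carry the same genotype and no treatment is given, so the libraries form 1 group and the comparisons below are between genes within a mouse.

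FGF receptors are cell-surface tyrosine kinases. A secreted FGF binds the receptor together with heparan sulphate, receptors pair, and adaptor proteins carry the signal to the RAS-ERK cascade, which in turn induces its own feedback inhibitors. FGFR1, FGFR2 and FGFR3 are known regulators of osteoblasts and chondrocytes, and FGFRL1 binds FGF but lacks the kinase domain. The splice form of FGFR1, FGFR2 or FGFR3 decides which ligands it accepts: FGF7 acts on the IIIb form of FGFR2, which is typical of epithelium, whereas stromal cells usually make the IIIc forms. Counts per gene do not separate these forms, so no statement on them is made here.

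Fgfr1 was the highest receptor and Fgf7 the highest ligand in 4 of 4 mice. Fgfr1 had 64.6 ± 20.8 TPM and Fgf7 had 23.5 ± 19.2 TPM (mean ± SD, n = 4 mice), where TPM is the level of a gene corrected for its length and scaled to a sum of 1000000 per library. Fgfr2 (26.0 ± 5.18 TPM) and Fgfrl1 (24.0 ± 24.4 TPM) followed among the receptors, Fgfr3 was low (4.10 ± 3.08 TPM), and Fgfr4 had 0 counts in every mouse. Fgf1 lay near 1 TPM, Fgf2 was read in 2 of 4 mice, and Fgf9 and Fgf18 had 1 and 6 counts in all. A median above 1 TPM over the 4 mice, the level taken here as expressed, was reached by 6 of the 10 genes: Fgfr1, Fgfr2, Fgf7, Fgfrl1, Fgfr3 and Fgf1. The same level was reached by 22.9% of all genes with a known length and by 44.2% of the protein-coding ones. Fgfr1, Fgfr2, Fgfrl1 and Fgf7 were above 1 TPM in every mouse, against 15.4% of all genes and 30.1% of protein-coding genes. The 10 genes are too few, and were chosen as a family, so nothing particular to them is read from these shares.

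**Figure D1:**
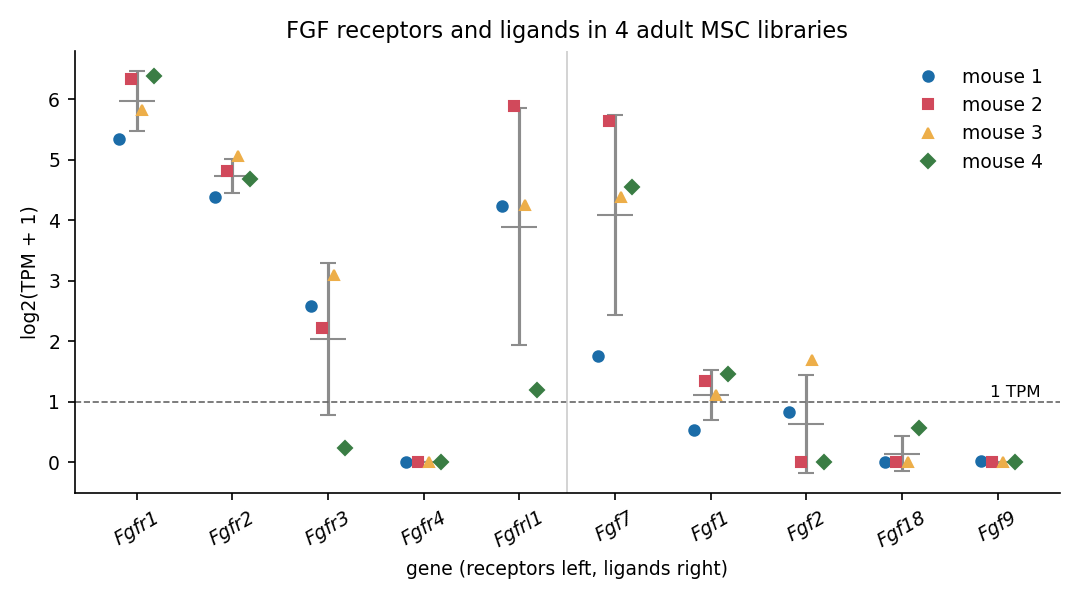
Level of each gene in each mouse, as log2(TPM + 1), with 1 point per mouse, the mean over 4 mice as a grey bar and the SD as whiskers; the dashed line marks 1 TPM. Fgfr1 and Fgfr2 each vary little between mice, while Fgfrl1 spans 1.29 to 58.6 TPM and Fgf7 spans 2.40 to 49.0 TPM.

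The libraries held between 22738604 and 43545349 counts on genes. A floor of 3 counts, below which a gene was not taken as detected, corresponds to between 0.0689 and 0.132 when a library is set to a sum of 1000000 counts, and covers counting error only, because PCR copies of a cDNA are not independent molecules. Zeros at low levels were common with 100 cells: among the 8584 genes with a mean from 1 to 10 TPM, 41.2% had at least 1 library at 0, and among the 5371 genes from 0.1 to 1 TPM, 57.8% had 2 or more libraries at 0. The sorting antigens were present, with 39.8 ± 7.29 TPM of Pdgfra and 15.7 ± 2.51 TPM of Itgav, which encodes CD51, and Ptprc, which encodes CD45, had a mean of 0.0701 TPM. Ly6a, one of the genes behind the Sca1 epitope, had 1, 120, 0 and 144 counts in mice 1 to 4 although Sca1+ cells were gated out. All 6 niche stroma markers, including Cxcl12 and Lepr, were above 1 TPM in every mouse, with sums between 1067 and 4644 TPM. The sum of the 4 osteoblast markers was higher, between 77790 and 168000 TPM, and came mostly from Bglap (mean 107200 TPM) and Ibsp (mean 13930 TPM). The other osteoblast markers, Alpl (mean 744 TPM) and Sp7 (mean 226 TPM), were below Cxcl12 (mean 2154 TPM) in every mouse. In such bulk libraries fewer cells of a type and less RNA per cell cannot be told apart.

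For the receptors, Fgfr1 (ENSMUSG00000031565) is a plus-strand gene at 25513654 to 25575718 of chromosome 8 in GRCm38, the build of all positions given here. Its counts in mice 1 to 4 were 6858, 8816, 9508 and 8464, or 39.5, 80.3, 55.7 and 82.9 TPM. Mouse 1 was the lowest and mice 2 and 4 were nearly equal. Its median of 68.0 TPM placed it at rank 1355, with 97.4% of genes below. Its coefficient of variation between mice was 32.1%, below the median of 42.4% over the 4673 genes with a mean from 10 to 100 TPM.

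Fgfr2 (ENSMUSG00000030849; minus strand of chromosome 7, 130162451 to 133123350) had 3607, 3122, 5765 and 2638 counts, or 19.9, 27.2, 32.3 and 24.7 TPM. The annotated span is 2960900 bases long, and a RefSeq start of the gene lies inside it, next to position 130266809. Of the 9 genes with a count Fgfr2 had the smallest coefficient of variation, 19.9%, and 14.0% of the 4673 genes of the same range had a lower one. The Fgfr1 and Fgfr2 values of the mice did not overlap: the lowest Fgfr1 value, in mouse 1, was above the highest Fgfr2 value, in mouse 3.

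Within a mouse, Fgfr1 was 1.99, 2.95, 1.73 and 3.36 times as high as Fgfr2 in TPM, in mice 1 to 4. On the log2(TPM + 1) scale the difference was 1.24 ± 0.45 (SD) and had the same direction in 4 of 4 mice. The exact two-sided sign-flip permutation test gave p = 0.125. With 4 mice no smaller p exists, and Benjamini-Hochberg adjustment over the 8 comparisons of this kind left it at 0.125. A p below 0.05 could therefore not be reached by any comparison here, and each is read by its size, its SD and its direction.

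Fgfrl1 (ENSMUSG00000008090; plus strand of chromosome 5, 108692382 to 108706924) had 879, 1815, 867 and 37 counts, or 17.96, 58.6, 18.04 and 1.29 TPM. Mice 1 and 3 were alike, mouse 2 was the highest and mouse 4 the lowest, with a ratio of 45.6 between the last 2. Its coefficient of variation of 102% exceeded the value of 92.9% of genes between 10 and 100 TPM. Without mouse 2 the mean fell from 24.0 to 12.4 TPM. The log2(TPM + 1) of Fgfr1 exceeded that of Fgfrl1 by 2.08 ± 2.13, in 4 of 4 mice, a mean no larger than its SD (p = 0.125 by the exact sign-flip test, 0.125 adjusted). Most of that mean came from mouse 4, where Fgfr1 was 64.5 times as high, and without that mouse it was 1.04. Fgfr2 was above Fgfrl1 in 3 of 4 mice and below it in mouse 2, by 0.84 ± 1.93 on average, so these neighbours did not differ beyond their spread.

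Fgfr3 (ENSMUSG00000054252; plus strand of chromosome 5, 33721674 to 33737068), a brake on cartilage growth, had 630, 292, 935 and 13 counts, or 5.003, 3.67, 7.56 and 0.176 TPM. Mice 1 to 3 lay between 3.67 and 7.56 TPM, and mouse 4 was 43.0 times lower than mouse 3. Fgfr1 exceeded Fgfr3 in 4 of 4 mice by 3.94 ± 1.62 in log2(TPM + 1), and Fgfrl1 exceeded it in 4 of 4 mice by 1.86 ± 1.24. Fgfr3 was also above Fgfr4 in 4 of 4 mice, by 2.03 ± 1.25.

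Fgfr4 (ENSMUSG00000005320; plus strand of chromosome 13, 55152640 to 55168759), a receptor best known from liver and muscle, had 0 counts in 4 of 4 libraries. The floor of 3 counts corresponds to between 0.0481 and 0.0820 TPM for this gene. Set at the floor, Fgfr4 was at least 820-fold lower than Fgfr1 in mouse 1 and at least 1137-fold lower in mouse 3, the smallest and largest of the bounds over the mice. The difference on the log2(TPM + 1) scale was 5.98 ± 0.50, a value that depends on the added 1.

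Of the summed TPM of the kinase receptors Fgfr1 to Fgfr4, Fgfr1 made up 61.4%, 72.2%, 58.3% and 76.9% in mice 1 to 4, a mean of 67.2 ± 8.82% (SD, n = 4). Fgfr2 made up 28.0 ± 5.17% and Fgfr3 4.79 ± 3.75%. The sum itself was 64.3, 111, 95.6 and 107.8 TPM. The order Fgfr1, Fgfr2, Fgfr3 was found in 4 of 4 mice, and the Fgfr3 share was the smallest in mouse 4, at 0.163%.

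**Figure D2:**
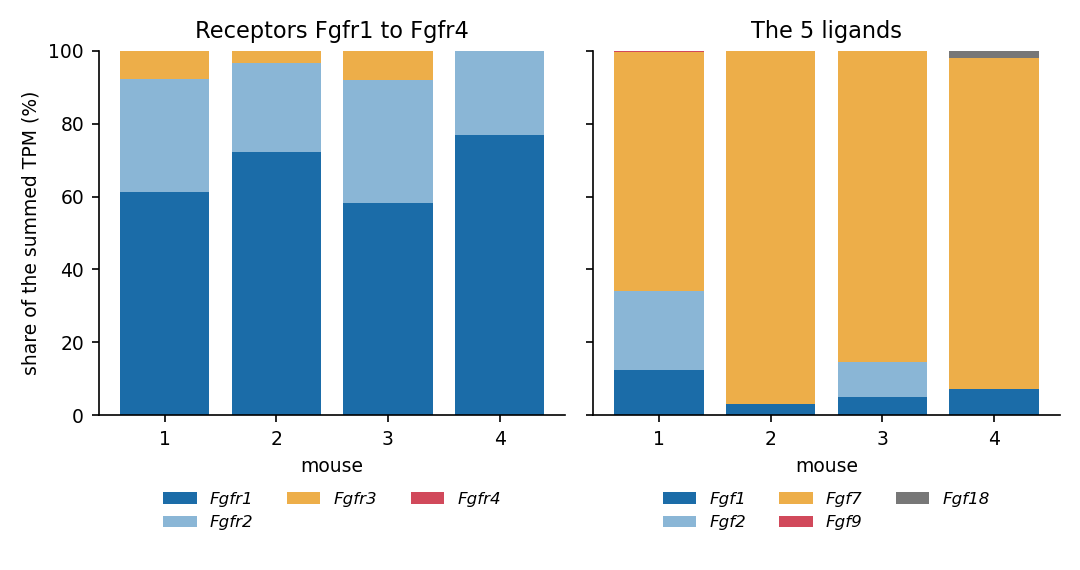
Share of each gene, in percent, in the summed TPM of Fgfr1 to Fgfr4 (left) and of the 5 ligands (right), with 1 stacked bar per mouse. Fgfr1 holds 58.3% to 76.9% of the receptor sum and Fgf7 holds 65.6% to 97.0% of the ligand sum, while Fgf2 appears only in mice 1 and 3.

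For the ligands, Fgf7 (ENSMUSG00000027208; plus strand of chromosome 2, 126034658 to 126091185), also called keratinocyte growth factor and made by mesenchyme, had 137, 1770, 1124 and 755 counts, or 2.40, 49.0, 20.03 and 22.5 TPM. Mouse 2 was 20.4 times as high as mouse 1, and mice 3 and 4 were close to each other. The coefficient of variation was 81.9%, above the value of 85.9% of genes between 10 and 100 TPM, and without mouse 2 the mean was 15.0 TPM. Fgf7 made up 65.6%, 97.0%, 85.5% and 90.9% of the summed TPM of the 5 ligands, a mean of 84.8 ± 13.6%. The ligand sum was 3.66, 50.5, 23.4 and 24.7 TPM, and was below the receptor sum in 4 of 4 mice.

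Fgf1 (ENSMUSG00000036585; minus strand of chromosome 18, 38838673 to 38929472), the acidic FGF that binds all receptor forms, had 44, 93, 109 and 99 counts, or 0.458, 1.53, 1.16 and 1.75 TPM. It was low but was read in every library, and its coefficient of variation of 46.4% was below that of most genes from 1 to 10 TPM, of which 20.6% had a lower one. The log2(TPM + 1) of Fgf7 exceeded that of Fgf1 by 2.98 ± 1.29, in 4 of 4 mice (p = 0.125 by the exact sign-flip test, 0.125 adjusted). In TPM it was 5.24, 32.0, 17.3 and 12.8 times as high.

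Fgf2 (ENSMUSG00000037225; plus strand of chromosome 3, 37348346 to 37410108), the basic FGF that is widely added to MSC cultures, had 94, 0, 263 and 0 counts, or 0.788, 0, 2.24 and 0 TPM. It was detected in mice 1 and 3 and had no count in mice 2 and 4, in which the floor corresponds to 0.0398 and 0.0428 TPM. Fgf7 was higher than Fgf2 in 4 of 4 mice, 3.04 times in mouse 1 and 8.92 times in mouse 3. With Fgf2 set at the floor, it was at least 1232-fold higher in mouse 2 and at least 525.5-fold in mouse 4. These bounds cover counting error only, and 57.8% of genes with a mean from 0.1 to 1 TPM had 2 or more libraries at 0. Fgf1 and Fgf2 did not differ beyond their spread, with Fgf1 higher in 2 of 4 mice and a mean difference of 0.48 ± 1.07 in log2(TPM + 1).

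Fgf18 (ENSMUSG00000057967; minus strand of chromosome 11, 33117430 to 33147400), a bone and cartilage FGF, had 0, 0, 0 and 6 counts. The 6 counts of mouse 4 correspond to 0.489 TPM, and the floor of the gene lies between 0.144 and 0.245 TPM over the mice. Against that floor, which covers counting error only, Fgf7 was at least 16.7-fold, 216-fold and 137-fold higher in mice 1, 2 and 3. In mouse 4 the ratio was 46.0. Fgf9 (ENSMUSG00000021974; plus strand of chromosome 14, 58070547 to 58112720), which acts in skeletal growth, had 1, 0, 0 and 0 counts. Its floor, again for counting error only, lies between 0.0367 and 0.0624 TPM, so Fgf9 was under it in 4 of 4 mice. Against that floor Fgf7 was at least 844.5-fold, 536-fold and 360-fold higher in mice 2, 3 and 4. In mouse 1, where Fgf7 was lowest, the ratio to the single Fgf9 count was 196, with an exact 95% counting interval from 34.6 to 7801. On the log2(TPM + 1) scale Fgf7 exceeded Fgf2 by 3.46 ± 2.08, Fgf9 by 4.08 ± 1.65 and Fgf18 by 3.95 ± 1.62, each in 4 of 4 mice with the smallest p that the exact test allows. None of the neighbouring pairs among Fgf1, Fgf2, Fgf18 and Fgf9 differed beyond their spread.

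The bases before RefSeq starts of genes at both ends of this range are shown, so that genes above 1 TPM and genes under the floor can be compared. The sequences are from RefSeq on GRCm38.p6 and run 5′ to 3′ over the 250 bases before a start that RefSeq gives for the gene, which need not be the outermost start of the annotation used for the positions above. The Fgf7 window ends at the base before that annotated start, the Fgfr4 window runs across it, and the Fgfrl1 and Fgf9 windows lie downstream of it, inside the annotated span of the gene. Capitals mark GGGCGG, the core of the GC box, on either strand. Fgfrl1 and Fgf7 were above 1 TPM in every mouse, and Fgfr4 and Fgf9 were under the floor in every mouse.
Fgfrl1 (chr5:108693979-108694228, plus strand): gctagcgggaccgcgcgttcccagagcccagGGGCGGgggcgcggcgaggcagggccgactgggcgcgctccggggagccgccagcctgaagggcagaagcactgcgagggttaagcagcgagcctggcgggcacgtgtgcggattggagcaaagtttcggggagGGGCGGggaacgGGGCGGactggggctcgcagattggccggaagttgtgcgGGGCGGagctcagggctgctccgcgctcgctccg
Fgf7 (chr2:126034408-126034657, plus strand): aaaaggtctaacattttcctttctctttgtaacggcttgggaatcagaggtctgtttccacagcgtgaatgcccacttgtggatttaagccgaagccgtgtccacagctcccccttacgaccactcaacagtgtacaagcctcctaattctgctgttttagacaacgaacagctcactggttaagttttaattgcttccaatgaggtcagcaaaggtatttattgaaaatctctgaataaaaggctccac
Fgfr4 (chr13:55152568-55152817, plus strand): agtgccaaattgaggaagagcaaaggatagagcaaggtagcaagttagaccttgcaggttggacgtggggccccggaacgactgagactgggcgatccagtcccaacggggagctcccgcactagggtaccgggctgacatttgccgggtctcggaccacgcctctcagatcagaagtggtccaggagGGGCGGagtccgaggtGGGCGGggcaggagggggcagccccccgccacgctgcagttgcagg
Fgf9 (chr14:58072436-58072685, plus strand): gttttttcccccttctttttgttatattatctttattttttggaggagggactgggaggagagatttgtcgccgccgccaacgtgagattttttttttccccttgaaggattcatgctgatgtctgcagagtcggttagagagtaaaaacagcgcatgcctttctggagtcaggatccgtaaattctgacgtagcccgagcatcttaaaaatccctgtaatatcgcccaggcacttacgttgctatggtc

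The Fgfrl1 window holds 30 CpG sites and 4 matches to GGGCGG, and that of Fgfr4 holds 15 CpG sites and 2 matches. Neither Fgf7, with 6 CpG sites, nor Fgf9, with 11, holds a match. The ratio of observed to expected CpG was 0.951 for Fgfrl1, 0.607 for Fgfr4, 0.512 for Fgf7 and 0.879 for Fgf9. Neither measure separated the pair above 1 TPM from the pair under the floor. Among the 32851 windows of all genes, 32.7% hold GGGCGG and the median ratio is 0.373. TATAAA, searched on both strands, was in none of the 9 windows used for 8 of the 10 genes and is in 12.4% of all windows. No window was found for Fgfr1. Windows of FGF genes on chromosome 18, where Fgf1 lies, were left out of this step but not out of the windows of all genes. None is therefore given for Fgf1. A match is a description of the letters and says nothing of binding.

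Counting limits some of the values. The counting options given by the study include no strand setting and none that counts a pair for more than 1 gene. Pairs that overlap exons of 2 genes, on either strand, are then counted for neither, which can lower a count. Fgf2 shares 640 exonic bases, 9.44% of its total, with Nudt6 on the opposite strand. Nudt6 had 202, 3, 274 and 102 counts in mice 1 to 4. It was highest in mouse 3 and then mouse 1, as Fgf2 was, but was also read in mouse 4, where Fgf2 was at 0. Fgfr3 shares 998 bases, 13.9%, with G630022F23Rik, which had 14 counts in mouse 1 and 0 elsewhere. Fgfr2 shares 314 bases, 3.04%, with Ctbp2 on the same strand, and Fgfr1 shares 164 bases, 1.66%, with Gm16159, which had 0 counts in every mouse. Fgf2 also shares 255 bases, 3.76%, with Gm43439 on the same strand, which had 0 counts in every mouse. Of the longest Fgf2 transcript, 844 bases, 14.1%, are near-identical to transcripts of Nudt6 or Gm43439. Of the longest Fgf9 transcript, 159 bases, 4.43%, are near-identical to a transcript of Naa16. For Fgf7, Fgfrl1, Fgfr4, Fgf18 and Fgf1 no shared exons and no near-identical copies elsewhere were found. Gene length matters for the larger receptors: the merged exons of Fgfr1 span 9875 bases and its longest transcript 5041, and for Fgfr2 the lengths are 10328 and 4429. With the shorter lengths the means rise to 99.0 TPM for Fgfr1 and 47.4 TPM for Fgfr2, with Fgfr1 still higher in 4 of 4 mice.

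Several members differed between mice together with markers of cell states. These pairings were picked after the values were seen. Fgf7 was the lowest in mouse 1 and the highest in mouse 2, and so were 5 of the 6 niche stroma markers: Cxcl12, the main retention chemokine of blood stem cells, with 983 and 4329 TPM, Lepr with 31.9 and 120 TPM, Foxc1 with 16.8 and 44.7 TPM, Ebf3 with 1.04 and 27.3 TPM, and Kitl with 14.9 and 112 TPM. Prrx1 went the other way, with 19.4 and 10.6 TPM. The summed adipocyte markers were 199, 962, 439 and 234 TPM in mice 1 to 4, again lowest in mouse 1 and highest in mouse 2.

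Fgfr3 and Fgf2 were both highest in mouse 3, followed by mouse 1. Dmp1, a matrix gene of osteocytes and late osteoblasts, had 1262, 588, 2105 and 435 TPM in mice 1 to 4 and stood in the same order as Fgfr3, and Mepe had 19.0, 19.0, 119 and 5.75 TPM. Phex, with 56.2, 41.4, 21.3 and 49.8 TPM, was lowest in mouse 3, and Sost, the marker of mature osteocytes, had 0 counts in every mouse. The cartilage collagen gene Col9a1 had 1.82, 0.213, 12.2 and 0.0573 TPM, again highest in mouse 3 and lowest in mouse 4. The other 3 chondrocyte markers did not follow it: Col11a2, the most abundant, had 346, 228, 214 and 218 TPM and was lowest in mouse 3, Acan was at 0 in mice 2 and 3, and Matn3 was read in mouse 1 alone. The summed chondrocyte markers were 352, 229, 226 and 219 TPM, highest in mouse 1. The part of any of these cell states in the Fgf7, Fgfr3 or Fgf2 values was not tested, and no correlation is given over 4 mice.

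Markers of cells that the sort should remove were uneven. Erythroid markers summed to 4885, 35.0, 1670 and 351 TPM in mice 1 to 4, and were highest in mouse 1, where Fgf7 and Fgfr1 were lowest. With these markers left out of the scaling, the number of FGF genes past 1 TPM was still 6 and the mean difference between Fgfr1 and Fgfr2 was unchanged. That step multiplies every other gene of a library by 1 common factor, so it can hardly move a difference within a mouse. The part of erythroid RNA in the FGF values was not tested. The endothelial markers Cdh5 and Kdr, the macrophage markers Adgre1, Csf1r and C1qa, and the smooth muscle markers Acta2 and Mcam had 0 counts in every mouse. Summed, the 4 endothelial markers lay between 0.0465 and 1.27 TPM, the 5 macrophage markers between 0 and 15.99 TPM and the 4 pericyte and smooth muscle markers between 0 and 29.1 TPM. The 5 neutrophil markers summed to between 5.97 and 24.6 TPM, with Ngp and Ltf at 0 in every mouse.

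The other genes of the pathway were taken from lists, and up to 4 genes of each are named by their median. The counts of genes past the level are to be read against the 44.2% of all protein-coding genes with a median above 1 TPM and the 30.1% above it in every mouse. Of the 13 other secreted FGF genes, none had a median above 1 TPM, and 4 had 0 counts in every mouse. Among these 4 was the bone hormone Fgf23, named after its values were seen. Fgf3 had the highest median, with 0, 2, 1 and 2 counts. A pair of genes, named after their values were seen, were read in a single mouse each: Fgf21, a metabolic hormone, with 112 counts (6.82 TPM) in mouse 3, and Fgf10, the close relative of Fgf7, with 82 counts (1.73 TPM) in mouse 4. Fgf7 was the only secreted FGF examined here that was above 1 TPM in every mouse.

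The klotho co-receptors, which endocrine FGFs need, were at background: Kl had 0, 1, 1 and 0 counts and Klb had 1, 0, 1 and 0. Of the 4 intracellular FGF-like factors, which do not act through the receptors in the usual way, Fgf13 was past the level, with 180, 589, 241 and 0 counts, and Fgf11 had at most 9 counts. Of the 6 binding proteins and membrane modulators 2 passed, and both were above 1 TPM in every mouse. Flrt2, a membrane protein of the FLRT family, had 14.3, 20.7, 23.7 and 4.499 TPM, and Flrt3, known to interact with FGF receptors, had 28.0, 11.6, 1.29 and 4.75 TPM. Fgfbp3 and Il17rd, an inhibitor of FGF signalling, had at most 3 and 24 counts.

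Of the 12 heparan sulphate genes 8 passed, against 44.2% of protein-coding genes, and 4 did so in every mouse, a share near the 30.1% of protein-coding genes. Ext2 (37.2 ± 10.7 TPM) and Ext1 (7.29 ± 3.32 TPM), which build the chain, were above 1 TPM in 4 of 4 mice. Sulf1, which removes sulphate groups that FGF binding needs, had 0.619, 12.4, 8.49 and 9.25 TPM and was low in mouse 1 alone, the mouse with the lowest Fgf7. Setting Sulf1 beside Fgf7 was done after the values were seen, and a relation was not tested. Ndst2, which sulphates the chain, had 6.99, 7.40, 7.13 and 0 TPM.

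**Figure D3:**
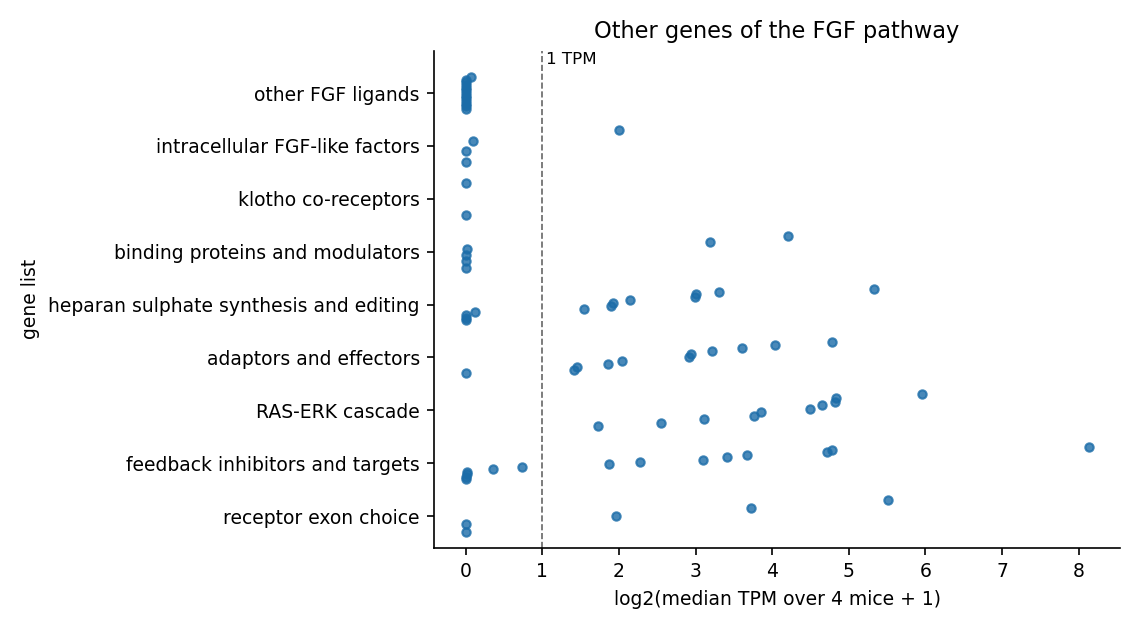
Median level over the 4 mice, as log2(TPM + 1), of the other genes of the FGF pathway, with 1 point per gene and 1 row per list; the dashed line marks 1 TPM. All 13 other ligands lie left of the line and all 10 genes of the RAS-ERK cascade lie right of it.

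Of 11 adaptors and effectors 10 passed, 7 of them in every mouse, where 44.2% and 30.1% of protein-coding genes did so. They were led by Shc1 (26.7 ± 13.7 TPM), Grb2 (17.99 ± 11.2 TPM), Gab1 (10.8 ± 3.70 TPM) and Ptpn11 (7.28 ± 3.87 TPM), which link receptors to RAS. All 10 genes of the RAS-ERK cascade passed, 9 of them in every mouse. The kinase genes Map2k2 (60.7 ± 30.6 TPM), Mapk3 (22.6 ± 11.7 TPM) and Araf (26.7 ± 11.01 TPM) were above 1 TPM in 4 of 4 mice, and Map2k1 was the exception, with 4330, 8, 2164 and 613 counts. These genes serve many receptors besides those for FGF.

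Of the 14 listed feedback inhibitors and targets 8 passed, 7 in every mouse, against 44.2% and 30.1% of protein-coding genes, so that nothing particular to this list is read from its counts. Egr1, an immediate-early transcription factor that cell dissociation is also known to raise, had 178, 380, 434 and 174 TPM. Spry1, an inhibitor of the pathway, had 8.59, 67.7, 16.8 and 36.2 TPM, and was lowest in mouse 1 and highest in mouse 2, as Fgf7 was. This likeness was picked after the values were seen, and a relation of Spry1 to Fgf7 was not tested. Egr1 was highest in mouse 3. Spred1, a related inhibitor, had 10.2, 23.3, 5.69 and 13.2 TPM, and was highest in mouse 2 but lowest in mouse 3. Dusp6, the ERK phosphatase, had 14.3, 36.4, 67.7 and 10.6 TPM and was highest in mouse 3. Named after their values were seen, Etv4 had 0 counts in every mouse and Spry2 had 21, 0, 125 and 0 counts.

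Of the 5 splicing regulators of the receptor exon choice, 3 passed. Ptbp1 had 97.6, 22.9, 66.5 and 4.92 TPM, Rbfox2 had 11.9, 18.6, 10.8 and 12.5 TPM, and Ptbp2 had 4.70, 0, 1.09 and 11.2 TPM. The epithelial regulators Esrp1 and Esrp2, which favour the IIIb forms, had 1, 0, 0 and 119 and 1, 0, 0 and 37 counts, so that both were under the floor in mice 1 to 3 and were read in mouse 4. Esrp1 was named after its values were seen.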

How the data were processed

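Full-length cDNA of 100 sorted MSCs from each of 4 mice was sequenced. The authors made FASTQ files with bcl2fastq 2.20.0, aligned read pairs to GRCm39 with STAR 2.7.10, counted uniquely mapped pairs on Ensembl exons with featureCounts (Subread 1.6.5), and deposited raw counts per gene with no normalization. TPM was computed from these counts with Python 3.11.15, dividing by the merged exon length in GENCODE M21 (GRCm38, not the build of the counts; 4855 genes without a length were left out). Coordinates are from GRCm38. Genes were compared within mice on log2(TPM + 1) by exact sign-flip permutation over the 4 mice, two-sided; 3 counts were the floor. Between libraries, TMM (edgeR 4.0.16) and DESeq2 1.42.0 size factors were alternative scalings only. BLAST 2.17.0 was used to look for copies of the genes at 95% identity over at least 100 bases. On simulated data, 50806 of 50852 genes clearly to one side of 1 TPM were placed correctly. The simulation held counting error only, around 1 profile common to all mice, without PCR noise or zeros that arise with 100 cells. It therefore checks the computation and not how reliably genes were placed in these libraries. The genes and lists were chosen with earlier results of these data known. Named were the 10 FGF genes, the 4 highest medians above 0 of each pathway list, and genes sharing exons with a member; others are marked in the text. No search for genes of like pattern was made, since 4 libraries of 1 group do not allow it.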

Additional observations from a re-analysis of the deposited data

Results flagged for a closer look

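In 13 of 72 sets of 4 values, 1 mouse stood apart by a gap above Dixon's 95% critical value for the gap over the whole range. For independent, normally distributed values chance gives about 1 set in 20, or 3.6. The sets here include values at 0 and are not of that kind, so the 13 are not read as an excess. In 5 of the 13, a single mouse had any count. Among the FGF genes these were Fgf18, with its 6 counts in mouse 4, and Fgf9, with its single count in mouse 1, both with a gap of 1.0 of the range; a set with 3 zeros always gives this value. The same holds for Fgf21 (1.0, mouse 3), Fgf10 (1.0, mouse 4) and Fgf12, which had 41 counts in mouse 2 (1.0). Fgf12, too, was named after its values were seen. Esrp1 (0.995) and Esrp2 (0.984) were read almost only in mouse 4, Il17rd (0.93) and Spry2 (0.835) mainly in mouse 3, and Ndst2 (0.945) was at 0 in mouse 4 and close to 7 TPM in the others. Of the marker sums, that of chondrocytes stood out in mouse 1 (0.927), that of pericytes and smooth muscle in mouse 2 (0.859) and that of macrophages in mouse 3 (0.969). Fgfr1, Fgfr2, Fgfr3, Fgfrl1, Fgf1, Fgf2 and Fgf7 had no mouse that stood apart in this way.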

How the results depend on the processing

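No paired analysis was possible because all libraries belong to 1 group, so that no samples of different groups could be matched by replicate number; the comparisons between genes were made within each mouse. No comparison changed its direction under another gene length or with no length correction. The other alternatives could not reverse one: each comparison lies within a mouse and had the same direction in 4 of 4 mice. This holds for another denominator, scaling between libraries, pseudocount or summary, and when a mouse was left out. With a mouse left out the smallest possible p of the sign-flip test is 0.25. The number of FGF genes past the level was 6, with a range of 4 to 7 over 16 alternatives: 7 with no length correction, where Fgf2 joins, and 4 when every mouse had to pass or the level was 5 TPM. The share of Fgfr1 among the receptors lay between 64.0% and 70.2%. The difference between Fgfr1 and Fgfr2 lay between 1.01 and 1.40 in log2 units, and that between Fgfr1 and Fgfrl1 between 1.04 without mouse 4 and 3.93 with no length correction. Fgf7 minus Fgf1 lay between 2.53 and 3.67. Differences from genes at 0 moved most with the pseudocount: Fgfr1 minus Fgfr4 was 9.28 and Fgf7 minus Fgf9 was 7.22 with 0.1 in place of 1. The scaling without erythroid markers was added after the data were seen. For Fgf9, Fgf18 and Fgfr4 only the floor can be given in the libraries at 0, and it covers counting error only.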
